A study of Mus musculus with 8 samples.

Results

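Granulocyte-macrophage colony-stimulating factor (GM-CSF), interleukin-3 (IL-3) and interleukin-5 (IL-5) signal through a small family of receptors, and 6 of its genes were followed here among the 33696 genes counted. They are Csf2ra, Il3ra and Il5ra, which encode the ligand-specific alpha chains, Csf2rb, which encodes the beta chain shared by the 3 receptors, Csf2rb2, which encodes a second beta chain of the mouse that serves IL-3, and Csf2, which encodes GM-CSF itself. The members were taken by gene symbol, and all 6 were present in each count table. The data are 4 droplet single-cell libraries of brain tumour tissue from mice of genotype NestinCreERT2;Fus1;RFPTdT, which also carry a luciferase allele and develop ependymoma driven by the ZFTA-RELA fusion. In these mice a tamoxifen-inducible Cre under Nestin control, active in neural progenitors of the embryonic brain, switches the fusion on, so every library comes from tumour-bearing animals. Mice were assigned at random at 3 weeks of age to 1 intrathecal dose of 5 mg per kg of mavrilimumab, an antibody against the GM-CSF receptor alpha chain, or of a control antibody (vehicle IgG). Animals were followed to a humane endpoint, at which the study describes the tumours as recurrent, while the labels give 6 to 8 weeks as the age at dissociation, and how both times relate is not given in the sources used here. There were 2 libraries per label, from cells stained for the leukocyte marker CD45 and the erythroid marker Ter119 and sorted, which the study describes as CD45+ cells from outside the blood vessels. Tumours were pooled within a group before loading, so the spread between libraries is not a spread between single mice, and p-values measure only the spread between these libraries.

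The libraries differed widely. After filters on depth, gene number and mitochondrial share, 984, 26757, 6412 and 5492 cells were kept in the libraries labelled vehicle IgG 1, vehicle IgG 2, mavrilimumab 1 and mavrilimumab 2, with medians of 11759, 3293, 3758 and 9506 unique molecular identifiers (UMIs, counted RNA molecules) per cell. Values over the 4 libraries are given below in that order. Cells were grouped by a few marker genes each into microglia, monocytes, neutrophils, CD8 T, CD4 T and NK cells and neural cells, and further small groups were formed from the remaining cells. All 5 check markers that the gates did not use were counted in each of the 7 gated groups with at least 20 cells in a library, and the further small groups had no such check. This asks only for a count above 0, and CD8 T cells of mavrilimumab 2 also held all 5 markers of each other group's list. In counts per 1000000 UMIs (CPM), neural cells of mavrilimumab 2 summed to 1943 for the microglia markers and 1399 for their own. CD8 T cells of vehicle IgG 1 summed to 3112 CPM for the microglia markers and 2896 CPM for the T cell markers. In the other gated groups of that size the own list summed highest. Immune cells of the library labelled vehicle IgG 2 carried RNA of neural genes, with a summed level of 178 to 550 CPM for 5 neural markers, against at most 20.1 CPM in immune cells of the other libraries. Its kept cells included 15593 neural cells, which a CD45+ sort would remove, against 4, 2 and 419 in the others. Up to 60 cell barcodes were shared by any pair of libraries. In 3 of 3 T cell receptor files the name inside the file gave the other treatment than the label. Of 2749 cell barcodes in the file labelled mavrilimumab TCR 1, 2491 matched cells of the expression library mavrilimumab 2, and of 5659 in that labelled mavrilimumab TCR 2, 4867 matched mavrilimumab 1. Of 193 in the vehicle IgG file, 182 matched vehicle IgG 1. CD8 T cells made up 7.11% and 6.49% of cells kept under the vehicle IgG label and 30.6% and 33.6% under the mavrilimumab label. Neural cells were 58.3% of cells kept in vehicle IgG 2, and microglia 59.3% of those in vehicle IgG 1. The CD8 T cell shares therefore have unlike bases. The cells kept in vehicle IgG 2 also outnumber those the study states were loaded per sample. Treatment is given throughout as labelled.

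GM-CSF binds its alpha chain with low affinity, and the beta chain joins to complete the receptor and carries the signal through the kinase JAK2 to the transcription factor STAT5. Myeloid cells are the classic responders, and activated lymphocytes are a classic source of GM-CSF. IL-3 acts on progenitors, basophils and other myeloid cells, and IL-5 acts on eosinophils and on a class of mouse B cells. These transcript levels do not measure how much receptor an antibody occupies.

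Csf2rb2 (chr15:78282507-78305721) and Csf2rb (chr15:78325800-78351001) are neighbours on mouse chromosome 15 of GRCm38.p6, the mm10 build, with 20079 bases between the end of the first and the start of the second. The coding sequences of both beta chains are nearly alike, so reads that fit both genes make the split between their counts uncertain. RefSeq start windows of 250 bases were matched for 5 of the 6 members, all but Csf2rb. The start used for the window lies 43 bases inside the span that RefSeq gives Csf2ra and 583 bases inside that of Il3ra, so these windows belong to an inner start, and for the other 3 it is the end of the span. The letters GAGGAA, a core often bound by the myeloid ETS factor PU.1, were searched on both strands and occurred in the windows of Csf2ra and Csf2rb2 and in 23.3% of all 32851 windows. The stretches of 30 bases that hold them are shown because both genes were high in the myeloid groups described next; capitals mark GAGGAA or its reverse complement TTCCTC.
Csf2ra, chr19:61228419-61228448, minus strand, positions -30 to -1 from the inner start: ttcccaacctgcagatGAGGAAGAGGAAgc
Csf2rb2, chr15:78305871-78305900, minus strand, positions -179 to -150 from the start: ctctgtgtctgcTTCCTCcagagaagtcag
The Csf2ra stretch holds 2 matches side by side, at positions -14 and -8, and the Csf2rb2 window holds 1, at -167. The windows of Csf2, Il3ra and Il5ra held no GAGGAA. The GC box GGGCGG, which 32.7% of all windows held on either strand, was matched once in Csf2ra, once in Csf2 and 5 times, partly overlapping, in Il3ra. The AP-1 letters TGANTCA, held by 6.75% of all windows, were matched only in Il5ra among these 5 members, at -99.

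Csf2ra, which encodes the GM-CSF receptor's alpha chain, was high in myeloid cells. In microglia, the resident macrophages of the brain, it was counted at 211, 193, 251 and 308 CPM, with a mean of 241 ± 50.6 CPM (SD, n = 4), from 281 to 2490 UMIs per library. Monocytes, the circulating precursors of macrophages, held 278, 457 and 381 CPM in the 3 libraries with at least 20 of them, which leave out vehicle IgG 1. Neutrophils, counted in vehicle IgG 2 and mavrilimumab 2, held 131 and 452 CPM, and dendritic cells of the same libraries 141 and 270 CPM. The ranges of these groups overlap across libraries, except that each monocyte value lay above both dendritic values. Within libraries, monocytes stood above microglia for Csf2ra in 3 of 3. A UMI of Csf2ra was found in 69.5%, 44.2%, 64.7% and 74.0% of microglia, and in 75%, 97.1% and 98.5% of monocytes. After every cell was thinned to 1000 UMIs, the shares were 14.0% to 22.5% of microglia and 28.4% to 40.0% of monocytes.

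In lymphoid cells Csf2ra was far lower. CD8 T cells held 0.978, 6.66, 4.05 and 4.98 CPM, and neural cells of vehicle IgG 2 and mavrilimumab 2 held 3.76 and 4.96 CPM. At 1000 UMIs per cell, 0% to 0.749% of CD8 T cells held a Csf2ra UMI. Neural cells, which should lack the gene, held one in 0.282% of cells in vehicle IgG 2 and 0.716% in mavrilimumab 2. CD8 T cells of these libraries held one in 0.749% and 0.325%, above neural cells in the first library and below them in the second. CD4 T cells held 2.60, 3.02, 13.6 and 13.0 CPM, and NK cells 16.4, 0 and 15.1 CPM. Among CD4 T cells, regulatory T cells held 21.2 CPM in both libraries labelled mavrilimumab, the only ones with 20 of them. Free RNA in barcodes of 10 to 300 UMIs held Csf2ra at 110, 4.24, 32.7 and 48.6 CPM. The estimated share of free RNA in CD8 T cells was 0%, 25.5%, 30.8% and 0.70%.

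Both beta chains were high in the same myeloid groups. Csf2rb was counted at 89.4, 51.6, 83.0 and 119 CPM in microglia, at 120, 356 and 172 CPM in monocytes, and at 201 and 298 CPM in the neutrophils of vehicle IgG 2 and mavrilimumab 2. The neutrophil values lay within the range of the monocytes. Dendritic cells held 28.2 and 90.0 CPM, B cells 9.0 to 12 CPM, regulatory T cells 6.05 and 17.0 CPM, and CD8 T cells at most 0.593 CPM. Csf2rb2 was counted at 35.4, 15.8, 31.8 and 51.0 CPM in microglia, at 12.9, 64.7 and 24.6 CPM in monocytes and at 7.73 and 63.7 CPM in neutrophils. It was at most 1.28 CPM in CD8, CD4 and gamma-delta T cells, and 0 UMIs were counted in B cells. In 21 plasmacytoid dendritic cells of vehicle IgG 2 it stood at 29.5 CPM, from 3 UMIs (exact Poisson interval 6.09 to 86.3 CPM), above the value of each other myeloid group of that library but with an interval that holds them all. In microglia, Csf2ra and Csf2rb were counted in the same cell in 46.4%, 11.1%, 26.1% and 48.9% of cells, against 37.5%, 7.73%, 22.2% and 42.2% if the detections were independent. Cells with a Csf2ra UMI were deeper than cells without one, with medians of 19008 against 5094 UMIs in vehicle IgG 1 and 13239 against 3939 in mavrilimumab 2. Part of the joint detection moves with depth, and how much was not tested. In monocytes the joint shares were 40.9%, 77.1% and 79.1%, against 40.9%, 77.7% and 77.9% if independent. In neutrophils they were 6.67% and 35.8%, against 5.06% and 37.0%.

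**Figure D1:**
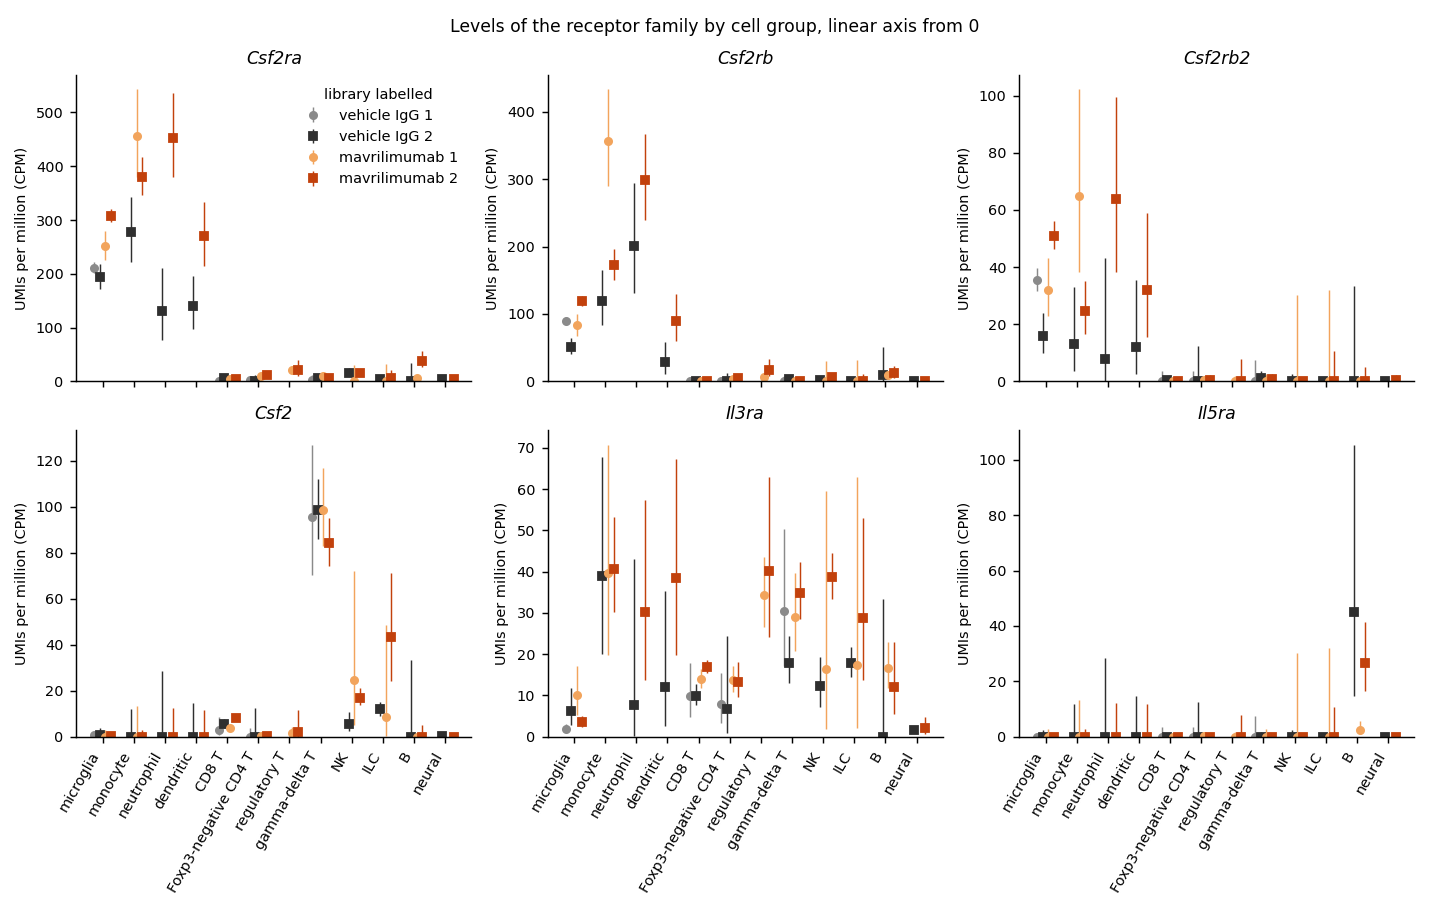
Levels of the 6 members, in UMIs per 1000000 (CPM, linear axes from 0) by cell group, 1 point per library with at least 20 cells of the group; bars are exact Poisson intervals of 95% and cover counting error only. Csf2ra, Csf2rb and Csf2rb2 stand high in microglia, monocytes, neutrophils and dendritic cells, Csf2 stands between 84.2 and 98.8 CPM in gamma-delta T cells, and Il5ra is seen almost only in B cells.

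Monocytes were set against microglia of the same library to ask how infiltrating and resident cells differ in their receptors. Csf2rb was higher in monocytes by 1.26 on the log2 scale (SE 0.31, 2.40-fold; edgeR quasi-likelihood test, adjusted p = 0.0223), in a comparison that called 27.8% of 9733 genes, 12.5% higher and 15.3% lower. Monocytes stood above microglia of the same library in 3 of 3 libraries. Without the library labelled mavrilimumab 1, whose monocytes held the most, the difference was 0.82 and the call was lost (edgeR adjusted p = 0.0807). Il3ra, the alpha chain of the IL-3 receptor, was higher by 2.83 (SE 0.43, 7.13-fold; edgeR adjusted p = 0.00318). Its levels were 38.8, 39.6 and 40.5 CPM in monocytes and 1.86, 6.20, 10.1 and 3.58 CPM in microglia. They did not overlap, and the share of all genes tested without such overlap was not counted. Csf2ra differed by 0.57 (SE 0.19; edgeR adjusted p = 0.0637), which did not pass, and it passed at 1.11 (edgeR adjusted p = 0.0234) when cells that met several gates were kept. Csf2rb2 differed by -0.19 (SE 0.44; edgeR adjusted p = 0.792), and its sign turned without the library labelled mavrilimumab 2. The 2 members called are the IL-3 alpha chain and the shared beta chain.

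Around the receptor, 2 of 15 tested signalling genes were higher in monocytes and 2 lower, shares near those over all genes tested, with a list median of 0.12 against -0.06. Jak2, the kinase bound to the beta chain, was higher by 1.88 (edgeR adjusted p = 0.00536) and Stat5a, one of its transcription factors, by 1.73 (edgeR adjusted p = 0.00619). Gab2, an adaptor, and Lyn, a kinase of the Src family, were lower, by 1.24 and 0.73 on the log2 scale (edgeR adjusted p = 0.00431 and 0.0157). Of 7 tested inhibitors, Inpp5d, which encodes the lipid phosphatase SHIP1, was the 1 called and fell by 1.56. Of 7 tested genes listed as GM-CSF targets, Pim1, Irf4 and Il1b were higher, by 3.11, 3.69 and 2.22, and Bcl2l1, a survival gene, was lower by 2.59 on the log2 scale. Without the library labelled mavrilimumab 2, Stat5a, Irf4, Lyn and Il1b did not pass (edgeR adjusted p = 0.0548, 0.112, 0.0726 and 0.286), and without mavrilimumab 1 Il1b and Lyn did not (edgeR adjusted p = 0.165 and 0.0567). Over 10 alternatives Lyn and Il1b lost their calls in 4 each and Gab2 in 2.

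Neutrophils were set against monocytes in the libraries labelled vehicle IgG 2 and mavrilimumab 2. No member passed in this comparison, which called 23.2% of 5507 genes, 14.1% higher and 9.12% lower. Csf2rb was 0.96 higher in neutrophils (SE 0.33; edgeR adjusted p = 0.0604), Csf2ra differed by -0.10 (edgeR adjusted p = 0.887) and Il3ra by -0.74 (edgeR adjusted p = 0.520). Among listed genes, 4 of 6 tested GM-CSF targets were called, all higher: Il1b by 5.79, Bcl2l1 by 2.85, Pim1 by 2.39 and Mcl1 by 1.38. The inhibitors Socs1 and Socs3, which dampen JAK signalling, were higher by 2.52 and 2.12 (edgeR adjusted p = 0.0068 and 0.0122). Both lost their calls in 3 of 7 alternatives, with adjusted p up to 0.123 and 0.197. Bcl2l1 did not pass in DESeq2 (adjusted p = 0.124), nor Mcl1 with free RNA subtracted (edgeR adjusted p = 0.111).

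Among groups with at least 20 cells in a library, Csf2, the GM-CSF gene, had its highest level in gamma-delta T cells. Gamma-delta T cells carry the T cell receptor made of gamma and delta chains and here were Cd3e-positive cells with a Trdc UMI that met none of the 7 gates. They held 95.6, 98.5, 98.8 and 84.2 CPM, a mean of 94.3 ± 6.84 (SD, n = 4), from 47, 230, 136 and 249 UMIs. Exact Poisson intervals of 95% ran from 70.3 to 127 in the shallowest case and overlapped in all 4 libraries. CD8 T cells held 2.93, 5.66, 3.66 and 8.37 CPM. No library overlapped between the groups, and the share of all genes without such overlap was not counted. Gamma-delta T cells made up 3.56%, 2.84%, 3.32% and 3.84% of cells kept but held 67.1%, 39.2%, 59.6% and 39.2% of all Csf2 UMIs. CD8 T cells held 4.29%, 5.79%, 16.2% and 34.2% of them. All cells of no gate, which include the gamma-delta T cells, held 87.1%, 88.8%, 80.3% and 51.0%. Innate lymphoid cells, also from these, held 15.7%, 11.4%, 0.439% and 2.36%, and made up 1.12%, 4.38%, 0.655% and 0.583% of cells kept. A further part of the Csf2 UMIs thus lay in cells of no gate outside both groups. In vehicle IgG 1 only 11 innate lymphoid cells were found, with 11 Csf2 UMIs among 77673 UMIs. Gamma-delta T cells there held 47 among 491563, so that small group stood above them. At 1000 UMIs per cell, 11.4%, 10.1%, 8.45% and 5.69% of gamma-delta T cells held a Csf2 UMI, against at most 0.171% of microglia, whose level was at most 0.699 CPM. In vehicle IgG 2, mavrilimumab 1 and mavrilimumab 2, NK cells held 5.46, 24.7 and 17.1 CPM, from 8, 3 and 84 UMIs. Innate lymphoid cells of these libraries held 11.9, 8.70 and 43.3 CPM, from 67, 1 and 15 UMIs. CD4 T cells held 0, 0, 0.673 and 0.564 CPM, and 0 of the 1520 Csf2 UMIs fell in monocytes, neutrophils or B cells.

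In edgeR's test within libraries, a comparison added after the levels of Csf2 were seen, Csf2 was 3.93 higher on the log2 scale in gamma-delta than in CD8 T cells (SE 0.26, 15.2-fold; adjusted p = 0.000119), where 20.8% of 10533 genes were called, 11.2% higher and 9.66% lower. The same comparison put Il3ra 0.96 higher (SE 0.16, 1.95-fold; edgeR adjusted p = 0.00480), at 30.5, 18.0, 29.05 and 34.8 CPM against 9.78, 9.99, 13.9 and 16.9 CPM. Its levels did not overlap either, and the share of all genes tested without such overlap was not counted. Csf2ra differed by 0.44 (SE 0.34; edgeR adjusted p = 0.442). The Csf2 estimate ran from 3.66 to 4.40 over 7 alternatives and passed in all of them. CD4 T cells, in turn, held less Csf2 than CD8 T cells, by 3.24 on the log2 scale (SE 0.53; edgeR adjusted p = 0.00467), in a comparison that called 12.6% of 11366 genes, 6.09% higher and 6.55% lower. That call rests on 7 CD4 UMIs and was lost without the library labelled mavrilimumab 2 (-2.82, edgeR adjusted p = 0.0563). NK and CD8 T cells did not pass for Csf2 (0.81, SE 0.47, edgeR adjusted p = 0.376), where 11.4% of 11708 genes were called, 5.16% higher and 6.25% lower.

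Csf2ra and Il3ra passed in neither of these lymphoid comparisons, and Csf2rb was too low to be tested. Without the filter on low counts Csf2rb was 3.01 higher in CD4 (edgeR adjusted p = 0.00198) and 3.04 higher in NK than in CD8 T cells (edgeR adjusted p = 0.00334), and with all 7 groups in 1 fit 2.90 and 3.16 higher (edgeR adjusted p = 0.0157 and 0.0105). Its levels were 0, 0, 4.17 and 6.20 CPM in CD4 T cells and 1.36, 0 and 6.10 CPM in NK cells, so UMIs were seen in 2 of 4 and 2 of 3 libraries. Free RNA held Csf2rb at 51.8, 0.386, 13.3 and 16.0 CPM over the 4 libraries. The estimated share of free RNA in CD4 T cells was 33.7% in mavrilimumab 1 and 0.777% in mavrilimumab 2. How much of these Csf2rb levels is free RNA was not tested. Csf2ra was 1.21 higher in CD4 than in CD8 T cells (SE 0.38; edgeR adjusted p = 0.0682), and it passed in 3 of 11 alternatives, at 1.49 without the library labelled vehicle IgG 2, at 1.14 without the filter and at 1.27 in cells of at least 2000 UMIs. In NK cells it was 1.23 higher than in CD8 T cells (SE 0.43; edgeR adjusted p = 0.114), and it passed in 2 of 10, at 1.38 without mavrilimumab 1 and at 1.39 in cells of at least 2000 UMIs. Il3ra differed by 0.72 between NK and CD8 T cells (SE 0.28; edgeR adjusted p = 0.160). Of 15 signalling genes tested in CD4 against CD8 T cells 3 were higher: Stat5b by 0.99 (edgeR adjusted p = 0.00121), Stat5a by 0.51 and Jak2 by 0.42. Stat5b passed in all 11 alternatives, while Stat5a and Jak2 lost their calls in 6 and 5 of them, with adjusted p up to 0.500 and 0.516. In the same comparison Pik3cd, a lipid kinase, was lower by 0.52 on the log2 scale. In NK against CD8 T cells 3 of 15 were higher and 0 lower. They were Fes at 2.61, Lyn at 2.21 and Gab2 at 1.80, and Gab2 lost its call in 6 of 10 alternatives, among them those without mavrilimumab 1 or mavrilimumab 2 (edgeR adjusted p = 0.0891 and 0.273).

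Gamma-delta T cells also differed from CD8 T cells in cytokine and regulator genes. Il17a, the interleukin-17A gene, was counted at 120, 463, 146 and 150 CPM against 0, 1.67, 0 and 0.424 CPM, a fitted difference of 8.50 (edgeR adjusted p = 1.2e-05). Il23r, the interleukin-23 receptor, was counted at 734, 375, 317 and 275 CPM against 0 to 5.16 CPM, and Il1r1, the interleukin-1 receptor, at 452, 343, 198 and 233 CPM against 0 to 5.16 CPM. The receptors of both cytokines, which are known to induce GM-CSF in T cells, were thus higher in 4 of 4 libraries, by 7.01 and 7.32. Il2ra, the interleukin-2 receptor alpha chain, was higher by 3.62, and Eomes, a factor of cytotoxic cells, was lower by 2.96 on the log2 scale. Of 15 tested regulators 7 were higher and 4 lower, and of 8 tested cytokines 3 were higher (Il17a, Lta and Tnf) and 4 lower, with Ccl4 down by 2.32 on the log2 scale.

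Among signalling genes, Fes and Shc1 were higher, by 2.55 and 0.66, and 3 of 14 tested were lower, among them Stat5b and Jak1, by 0.48 and 0.44 on the log2 scale. Of 9 tested inhibitors, 4 were higher, with Socs2 at 2.05, Cish at 0.88 and Socs1 at 0.87, and Cblb was lower by 0.60 on the log2 scale. Cish and Socs2 are known STAT5 targets, and Csf2ra and Csf2rb themselves were at 2.03 to 10.2 CPM and 0 to 3.00 CPM in these cells. Pim1 and Bcl2l1 were higher by 1.17 and 0.64 and Myc was lower by 1.26 on the log2 scale among 6 tested targets. Leaving out 1 library ended the calls of Stat5b, Jak1 (both without mavrilimumab 1), Cblb (without mavrilimumab 2) and Bcl2l1 (without vehicle IgG 1, vehicle IgG 2 or mavrilimumab 1), with edgeR adjusted p between 0.0536 and 0.122.

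**Figure D2:**
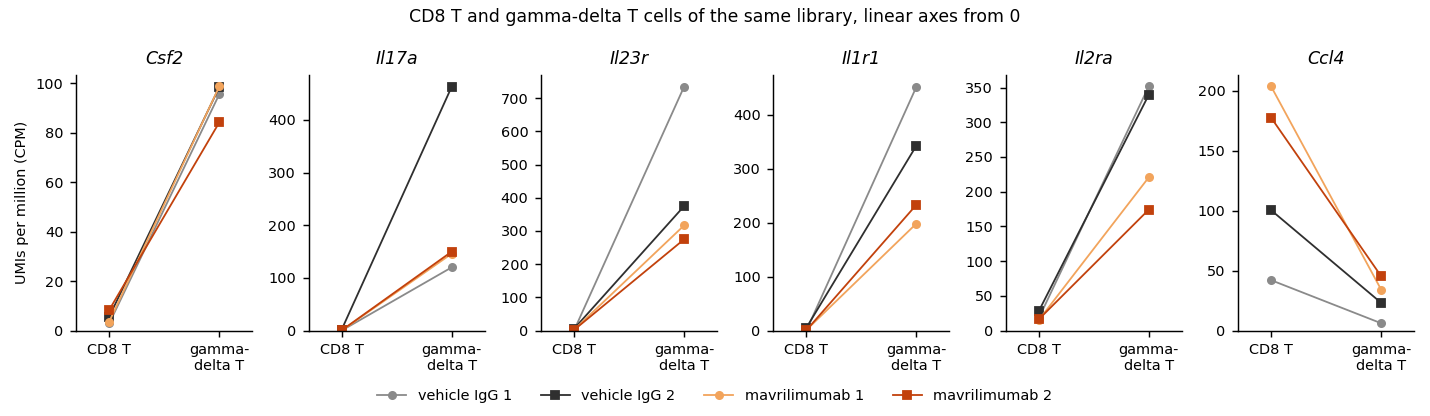
UMIs per 1000000 (CPM, linear axes from 0) in CD8 T and gamma-delta T cells, a line joining both groups of the same library. Csf2 rises from 2.93 to 8.37 CPM in CD8 T cells to 84.2 to 98.8 CPM in gamma-delta T cells, Il17a, Il23r, Il1r1 and Il2ra are higher in 4 of 4 libraries, and Ccl4 is lower in 4 of 4.

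CD8 T cells with a Csf2 UMI were compared with those without, in the 3 libraries with at least 10 such cells (32, 33 and 108 cells; the library labelled vehicle IgG 1 had 2). Free RNA held Csf2 at 11.9, 1.05, 8.87 and 3.04 CPM over the 4 libraries, above the CD8 T cell level in vehicle IgG 1 and mavrilimumab 1, and its part in the UMIs of these cells was not tested. At 1000 UMIs per cell, 0%, 0.518%, 0.255% and 0.488% of CD8 T cells held a Csf2 UMI, against 0% of CD4 T cells in all 4 libraries. The split uses the count of Csf2 itself, and the cells with a UMI were deeper, with medians of 3591 against 2706, 6318 against 4709 and 19779 against 12077 UMIs. Of 11047 genes tested, 5.29% were called, 2.43% higher and 2.86% lower with Csf2. Xcl1, a chemokine that attracts dendritic cells, was counted at 879, 1382 and 2145 CPM with a Csf2 UMI and at 551, 350 and 543 CPM without one, a difference of 1.59 (SE 0.13; edgeR adjusted p = 1.4e-15). Ccl3 and Ccl4, chemokines of the MIP-1 family, were higher by 2.39 and 1.74, but not in every library: in vehicle IgG 2, Ccl3 was at 0 CPM with and 10.7 CPM without a Csf2 UMI. Tnfrsf9, the activation receptor 4-1BB, was higher by 1.60, at 67.7, 157 and 242 CPM against 39.8, 52.3 and 70.6 CPM.

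Of 15 tested regulators 8 were higher and 0 lower, with a list median of 0.99 against -0.02 over all genes. Il23r was higher by 5.33, Il1r1 by 4.79 and Bhlhe40, a factor needed for GM-CSF in T cells, by 0.99. The Il23r difference rests on 3, 17 and 38 UMIs in the cells with Csf2. Trdc, the delta chain gene, named after its values were seen, was at 45.1, 32.3 and 7.78 CPM with and at 5.28, 5.45 and 6.61 CPM without a Csf2 UMI (difference 1.52; edgeR adjusted p = 0.0891), and its part in the result was not tested. Against cells without Csf2 of like depth, 345 genes were called instead of 584. There Xcl1 was higher by 1.50, Ccl3 by 3.18, Tnfrsf9 by 1.56, Il23r by 5.03 and Bhlhe40 by 0.93, all called. In DESeq2's Wald test Ccl3 and Ccl4 were not called, at 1.38 and 1.09 (DESeq2 adjusted p = 1.00 for both), and 140 genes were. Without the library labelled mavrilimumab 2, Ccl4 was at 0.68 and not called (edgeR adjusted p = 0.0606), and 159 genes were. Of the receptor genes, Csf2ra differed by -0.43 (edgeR adjusted p = 0.934) and Il3ra by 0.70 (SE 0.36; edgeR adjusted p = 0.401). Fes and Lyn, kinases that bind cytokine receptors, were the 2 of 15 signalling genes called, both higher, at 2.33 and 1.26, and neither passed without mavrilimumab 2. In CD4 T cells 0, 0, 3 and 2 cells held a Csf2 UMI, too few to compare.

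**Figure D3:**
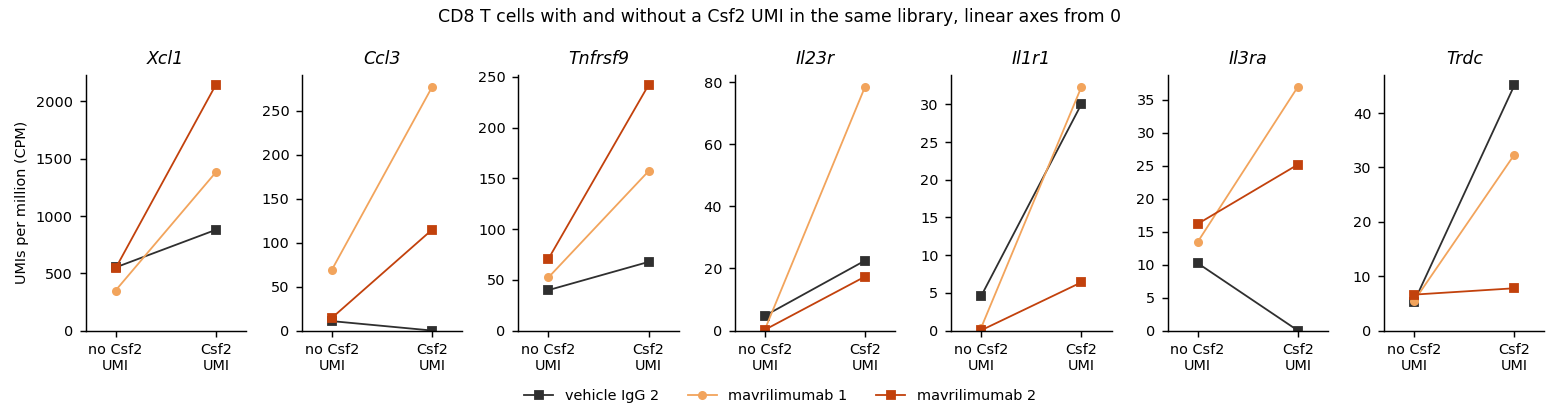
UMIs per 1000000 (CPM, linear axes from 0) in CD8 T cells without and with a Csf2 UMI, a line joining both groups of the same library, for the 3 libraries with at least 10 cells with Csf2. Xcl1 and Tnfrsf9 are higher with Csf2 in 3 of 3 libraries, while Ccl3 falls from 10.7 to 0 CPM in vehicle IgG 2, and Trdc reaches 45.1 and 32.3 CPM in 2 of 3 libraries.

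Il3ra was spread more evenly over the cell groups than the other receptor genes. Besides monocytes and gamma-delta T cells, it was counted in regulatory T cells at 34.3 and 40.3 CPM, in NK cells at 12.3, 16.5 and 38.6 CPM and in innate lymphoid cells at 17.8, 17.4 and 28.8 CPM. B cells held 0, 16.7 and 12 CPM, dendritic cells 12.1 and 38.6 CPM, and neutrophils 7.73 and 30.2 CPM. Neural cells held 1.76 and 2.07 CPM, and microglia of vehicle IgG 1, at 1.86 CPM, lay within that range. CD4 T cells (13.9, 6.05, 19.2 and 16.9 CPM) and CD8 T cells overlapped, and the difference of 0.14 did not pass (edgeR adjusted p = 0.761). At 1000 UMIs per cell, at most 6.25% of the cells of any group held an Il3ra UMI, in dendritic cells of mavrilimumab 2, so single cells say little about this gene. Free RNA held Il3ra at 3.51, 2.31, 23.6 and 10.8 CPM over the 4 libraries. In mavrilimumab 1 that level lay above those of CD8 T, CD4 T, NK, innate lymphoid and B cells. Gamma-delta T and regulatory T cells of that library stood above it. Both libraries labelled mavrilimumab held more free Il3ra than both labelled vehicle IgG, and its part in the levels of cells was not tested.

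Regulatory T cells, the Foxp3-positive suppressors of immune responses, were compared with Foxp3-negative CD4 T cells in both libraries labelled mavrilimumab, after the levels of Il3ra were seen. Il3ra was higher by 1.37 (SE 0.28, 2.59-fold; edgeR adjusted p = 0.0475), at 34.3 and 40.3 against 13.8 and 13.3 CPM, where 2.44% of 10652 genes were called, 1.52% higher and 0.92% lower. DESeq2 gave 1.39 with an adjusted p = 0.430, so the call depends on the tool. Csf2ra differed by 0.88 (SE 0.34; edgeR adjusted p = 0.282), at 21.2 and 21.2 against 10.8 and 11.7 CPM, and Csf2rb by 1.22 (edgeR adjusted p = 0.432). Il2ra, which marks regulatory T cells, was higher by 3.97, Tnfrsf9 by 3.14, Cish by 1.55, Lyn by 1.49 and Pim1 by 1.19. Of 15 tested signalling genes, Lyn was the 1 called higher and Ptpn11, at -1.11 (edgeR adjusted p = 0.0412), the 1 called lower. Ptpn11 lost its call in 1 of 3 alternatives. Il2, the interleukin-2 gene that these cells do not make, was lower by 5.17 on the log2 scale. Lyn and Il2 did not pass in DESeq2 (adjusted p = 0.163 and 0.0904).

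Il5ra, the alpha chain of the IL-5 receptor, was counted 38 times in 39645 cells. B cells held 5, 6 and 20 of these UMIs in vehicle IgG 2 and both libraries labelled mavrilimumab, which is 71.4%, 75% and 87.0% of those in each library. Their levels were 45.2, 2.57 and 26.8 CPM, with exact Poisson intervals of 14.7 to 105, 0.944 to 5.60 and 16.3 to 41.3 CPM. The interval of mavrilimumab 1 lies below the other 2, which overlap. Csf2ra was counted at 0, 6.86 and 38.8 CPM in the same B cells, and its levels overlap those of NK and regulatory T cells.

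The other 2 ligands of the family were no members but were counted alike. Il5 was counted 988 times, 909 of them in the library labelled vehicle IgG 2. Innate lymphoid cells there held 581 of the Il5 UMIs, or 104 CPM, and in mavrilimumab 2 they held 44 UMIs, or 127 CPM. In mavrilimumab 1, 42 innate lymphoid cells held 0 Il5 UMIs, which allows up to 32.1 CPM by the exact Poisson interval. Il3 was not detected, with 0 UMIs in all 39645 cells, so the IL-3 receptor genes stood without a count of their ligand at this depth.

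Over 36 sums of cells by library and group, each member's nearest genes were sought by Pearson's r of log2(CPM + 1). These sums share libraries and depth, and the cell groups they come from were not held apart. Csf2ra was nearest to Ifi207 (r = 0.935), Cd300a (0.931), I830077J02Rik (0.929), Rab32 (0.926) and Ppt1 (0.911). Csf2rb was nearest to Spi1, which encodes PU.1 (0.959), Nfam1 (0.948), Lyl1 (0.937) and Themis2 (0.936). Csf2rb2 was nearest to Gm46224 (0.968), Cd300a (0.954), Ifi207 (0.946), Cd300c2 (0.938) and Siglece (0.936), so it shared Cd300a and Ifi207 with Csf2ra. Csf2 was nearest to Trgv1 (0.924), a gamma chain segment, Ly6g5b (0.912), Trdv4 (0.858), a delta chain segment, Trdc (0.855), on which the group was gated, and Prrt1 (0.843). Il3ra had looser neighbours, Cdc42ep3 (0.768), Esyt1 (0.766), Pqlc3 (0.756), Eml2 (0.752) and Tspo (0.751). Il5ra was counted in too few sums to rank.

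The libraries labelled mavrilimumab were last set against those labelled vehicle IgG, to ask whether blocking the receptor was followed by other levels of its genes. In 16 tests of members over 5 cell groups 0 passed, and 15 of the 16 estimates, which share the same libraries, were above 0. Medians over all genes tested in these groups lay between -0.09 and 0.02, and the share of all genes above 0 was not counted. With free RNA subtracted, Il3ra in monocytes and Csf2ra and Csf2 in CD8 T cells also fell below 0. In microglia, with 2 libraries per label, Csf2ra was at 251 and 308 CPM under the mavrilimumab label and at 211 and 193 CPM under the vehicle IgG label. The labels did not overlap for it, and the share of all genes tested without such overlap was not counted. The difference was 0.53 (SE 0.25; edgeR adjusted p = 0.999), and 0.29 with free RNA subtracted, whose estimated share was 26.4% in microglia of vehicle IgG 2 and at most 3.17% in those of the other libraries. For Csf2rb it was 0.57 (SE 0.37), for Csf2rb2 0.73 (SE 0.47) and for Il3ra 0.89 (SE 0.91), and the labels overlapped for all 3. In microglia 0% of 12414 genes were called by edgeR, with 363 at an unadjusted p under 0.05, and DESeq2 called 12. With the replicate number as a block 216 genes were called, without vehicle IgG 1 it was 1409 and without vehicle IgG 2 it was 169. Without the library labelled vehicle IgG 1, Csf2rb and Csf2rb2 did pass, at 1.11 and 1.56 (edgeR adjusted p = 0.0428 and 0.0333), the remaining vehicle library then being the one with neural RNA.

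In monocytes the library labelled vehicle IgG 2 stood alone against both labelled mavrilimumab, and the lone library is assumed to vary like the others. Csf2ra differed by 0.66 (SE 0.40; edgeR adjusted p = 0.500), Csf2rb by 1.19 (SE 0.53; adjusted p = 0.347), Csf2rb2 by 1.70 (SE 0.93; adjusted p = 0.452) and Il3ra by 0.13. All 4 estimates have the treatment label and the neural RNA of vehicle IgG 2 on the same side, which cannot be told apart. In this comparison 1.06% of 6398 genes were called, 10 higher and 58 lower, and with DESeq2's size factors 0 higher and 32 lower. The p-values hold no spread of the vehicle label in monocytes and compare these 3 libraries. Of the listed genes, Socs3, an inhibitor of cytokine signalling, differed by 3.79 (edgeR adjusted p = 0.0384) at 108 and 72.3 against 6.47 CPM, and Il1b by 3.04 (edgeR adjusted p = 0.0412) at 183 and 127 against 19.4 CPM. Ccl3 differed by -3.37 (edgeR adjusted p = 0.00665). Socs3 lost its call in 4 of 6 alternatives (adjusted p up to 0.528), Il1b in 3 (up to 0.272) and Ccl3 in 2 (up to 0.321), the highest p being that of DESeq2 for all 3. Neutrophils had 1 library per label and were not tested: Csf2ra stood at 131 CPM under vehicle IgG and 452 CPM under mavrilimumab, from 17 and 135 UMIs. An estimate of 58.9% of free RNA in the neutrophils of vehicle IgG 2, from neural genes, moves with that value, and its part was not tested.

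In CD8 T cells Csf2 differed by 0.46 (SE 0.66), Csf2ra by 0.07 and Il3ra by 0.70 (SE 0.33; edgeR adjusted p = 0.911). The Il3ra estimate ran from 0.27 to 0.94 over 11 alternatives and passed in none of them. Of 12268 genes 0% were called, with 549 at an unadjusted p under 0.05 and 27 called by DESeq2. In CD4 T cells Csf2ra stood at 13.6 and 13.0 CPM under the mavrilimumab label and at 2.60 and 3.02 CPM, from 3 and 1 UMIs, under vehicle IgG. The difference of 2.34 (SE 0.57) did not pass (edgeR adjusted p = 1.00), with 0% of 10557 genes called, 300 at an unadjusted p under 0.05 and 0 by DESeq2. With free RNA subtracted, Csf2ra was too low in CD4 T cells to be tested, the estimated share of free RNA being 33.7% in those of mavrilimumab 1 and 0.777% in those of mavrilimumab 2. Regulatory T cells numbered 12, 7, 417 and 54 among 99, 113, 1748 and 406 CD4 T cells, and Foxp3-negative CD4 T cells alone held 2.95, 0, 10.8 and 11.7 CPM of Csf2ra. In NK cells, again with vehicle IgG 2 alone under its label, 10.6% of 11419 genes were called, 61 higher and 1144 lower. Il3ra differed by 1.51 (SE 0.61; edgeR adjusted p = 0.108), Csf2 by 1.78 (SE 0.93; edgeR adjusted p = 0.350) and Csf2ra by -0.33. The 5 neural markers summed to 370 CPM in NK cells of vehicle IgG 2, against 0 and 2.85 CPM in mavrilimumab 1 and 2. That neural RNA cannot be told apart from the label here, and the NK sum of mavrilimumab 1 came from 20 cells. The NK gate of vehicle IgG 2 also held 16 UMIs of Arg1, a gene known from innate lymphoid cells, against 0 in both other libraries, and its part was not tested.

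Whether the treatment effect differed between monocytes and microglia was tested by an interaction, which called 0.811% of 12091 genes and no member. The estimates were -0.07 for Csf2ra, Csf2rb and Csf2rb2 and 0.18 for Il3ra (edgeR adjusted p = 1.00 for all 4), and the sign of the first 3 turned with the scaling.

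**Figure D4:**
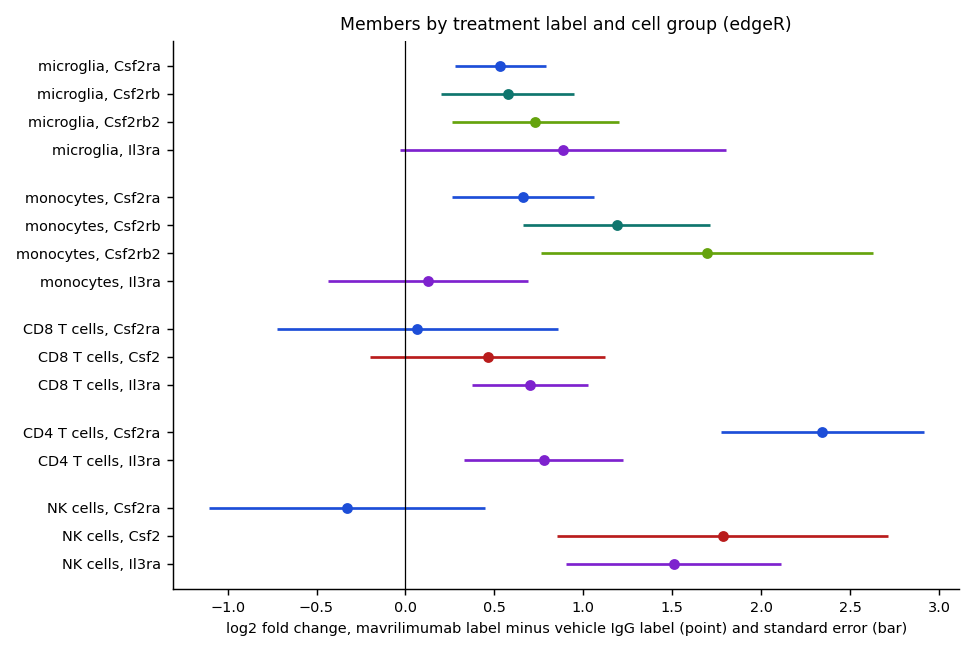
Log2 fold change of each tested member between the libraries labelled mavrilimumab and vehicle IgG (x axis) by cell group (rows); points are edgeR estimates and bars are 1 standard error. Of 16 estimates, which share the same libraries, 15 lie above 0 and 0 passed at an adjusted p of 0.05. With free RNA subtracted (not shown), Il3ra in monocytes and Csf2ra and Csf2 in CD8 T cells also fell below 0.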

How the data were processed

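Single-cell 5′ libraries of sorted brain tumour cells were measured. The deposited matrices hold raw UMI counts for each gene and barcode, which the authors obtained with Cell Ranger without filtering barcodes, and total counts per library were 24354457, 148657643, 35785802 and 87127346 in the order used above. The matrix headers name version 9.0.1 and the submitters' processing notes name versions 7 and 7.1.0, the build mm10 and Scanpy 1.8.2. T cell receptor files were used only for their cell barcodes, and 1 of the receptor libraries was not analysed here.

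Barcodes entered as cells with at least 1000 UMIs (500 for neutrophils), 200 to 6000 genes and no more than 10% of UMIs from mitochondrial genes. They were placed in 7 groups by counts of marker genes. Cells that met several gates (5, 328, 30 and 132) were left out, which also removes part of the doublets, and no doublet caller was run. Cells in no gate were 21.0% to 37.4%. The additional groups were formed from these, regulatory T cells from CD4 T cells. UMIs were summed per library and group where at least 20 cells were present and given as CPM, and intervals cover counting error only.

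Sums were compared with edgeR 4.0.16 in R 4.3.3 (quasi-likelihood test, TMM scaling, filterByExpr, Benjamini-Hochberg adjustment over all genes tested, threshold 0.05), with the library as a block where groups of the same library were compared. The standard error was the absolute log2 fold change divided by the square root of F. Levels of free RNA came from barcodes of 10 to 300 UMIs, a window widened after the barcode totals were seen. DESeq2 1.42.0 was an alternative, beside other scalings, filters, gates, depths and left-out libraries. The steps were tested on simulated data. Lists were of 15 signalling genes, 9 inhibitors, 11 GM-CSF targets, 13 T cell cytokines and 15 T cell regulators. From each list up to 4 genes with the smallest p in a comparison were named, and 5 nearest genes per member, of which 1 is not reported here. The members and lists were chosen with earlier results of these data known. The comparisons of gamma-delta and of regulatory T cells, and that with cells of like depth, were added after values were seen. Promoter stretches are from RefSeq on GRCm38.p6.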

Additional observations from a re-analysis of the deposited data

Results flagged for a closer look

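Among the members and listed genes, 1 passed the test of a difference in treatment effect between monocytes and microglia, which called 0.811% of 12091 genes and in which the vehicle IgG arm of the monocytes is 1 library whose spread is assumed to be that of the others. The treatment effect on Il1b, which encodes interleukin-1 beta and is listed as a GM-CSF target, differed between monocytes and microglia by 3.81 on the log2 scale (SE 0.61; edgeR interaction term, adjusted p = 0.00222). In monocytes Il1b reached 183 and 127 CPM under the mavrilimumab label and 19.4 CPM, from 6 UMIs, in vehicle IgG 2. In microglia it was at 24.1 and 14.0 CPM under the mavrilimumab label and at 57.2 and 35.1 CPM under vehicle IgG. The difference was 3.95 in DESeq2 (adjusted p = 0.136) and 1.58 with cells of several gates kept (edgeR adjusted p = 0.352), and neither passed. The neural RNA of that 1 library cannot be told apart from its label.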

How the results depend on the processing

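The 41 results on members were recomputed under alternatives, giving 330 values, of which 292 kept their direction and side of the threshold, 5 lost a call, 8 gained one and 25 changed sign. None of the 6 member results called changed sign, and of 886 values for 107 named list genes 751 kept their call, 135 lost it and 0 changed sign. Beside the losses given in the report, Csf2rb in monocytes against microglia and Csf2 in CD4 against CD8 T cells lost their calls with all 7 groups in 1 fit, at 1.11 and -3.51 (edgeR adjusted p = 0.0500 and 0.0590).

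Counts of genes called moved as follows. In the treatment comparison of microglia they were 8 without a filter, 12 in DESeq2 and 0 to 1409 without 1 library, and in monocytes 32 with DESeq2's size factors, 497 without a filter, 24 in DESeq2, 107 with cells of several gates, 33 at 2000 UMIs and 15 with free RNA subtracted. CD8 T cells gave 27 in DESeq2, CD4 T cells 549 without a filter and 0 to 5 without 1 library, and NK cells 1916 without a filter, 233 in DESeq2 and 382 with free RNA subtracted. Monocytes against microglia gave 1158 to 2981 without 1 library. Neutrophils against monocytes gave 645 in DESeq2, 340 with free RNA subtracted and 2380 with all 7 groups in 1 fit. CD4 against CD8 T cells gave 2378 without a filter, 577 with free RNA subtracted, 231 in 1 fit and 769 to 1102 without 1 library, and NK against CD8 T cells gave 2208, 809, 606 and 732 to 1552. Cells with Csf2 gave 140 in DESeq2, 345 at like depth and 159 to 715 without 1 library. The interaction gave 181 without a filter and 21 in DESeq2, gamma-delta T cells 1380 to 1829 without 1 library, and regulatory T cells 768 without a filter and 144 in DESeq2. The cause of these moves was not tested.

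Signs changed for uncalled members only. With free RNA subtracted, the treatment difference was -0.067 for Il3ra in monocytes and -0.94 for Csf2ra and -0.083 for Csf2 in CD8 T cells, and Csf2ra in neutrophils against monocytes was 0.027. Without 1 library, the treatment difference ran from -0.020 to 1.74 for Il3ra in microglia, from -0.46 to 2.30 for Csf2ra and from -0.25 to 1.17 for Csf2 in CD8 T cells. Likewise Il3ra in CD4 against CD8 T cells ran from -0.058 to 0.25, Csf2rb2 in monocytes against microglia from -0.87 to 0.52 and Csf2ra in cells with Csf2 from -0.86 to 0.079. With cells of several gates, Csf2ra in NK cells by treatment was 0.25, Csf2rb2 in monocytes against microglia 0.22 and Il3ra in the interaction -0.62. In the interaction, DESeq2's size factors moved the median of all genes from -0.18 to -0.03. With them, in DESeq2, at 2000 UMIs and with free RNA subtracted, Csf2ra was 0.075, 0.080, 0.20 and 0.43, Csf2rb 0.075, 0.12, 0.22 and 0.44, and Csf2rb2 0.085, 0.28, 0.036 and 0.44.

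The replicate numbers of both labels only share a number: with 2 pairs, the correlation of same-numbered deviations was 0.38 in microglia, 0.39 in CD8 and 0.13 in CD4 T cells. With the number as a replicate block, 216 genes were called in microglia and 0 in CD8 and in CD4 T cells, and no member. Monocytes and NK cells by treatment, neutrophils against monocytes, the interaction and regulatory T cells could not be fitted with a library left out, nor the first 2 with the block, and thinning before the Csf2 split left too few cells. Il5ra, Il3 and Csf2 in CD4 T cells had 38, 0 and 7 UMIs, and for Il5ra and Il3 low expression and depth cannot be told apart. In CD4 T cells Csf2 stood at 0.673 and 0.564 CPM in mavrilimumab 1 and 2, against 3.66 and 8.37 CPM in CD8 T cells. The part of depth in that was not tested.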
